A study of Solanum lycopersicum with 84 samples.

Results

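Galactinol synthase (GolS) transfers galactose from UDP-galactose to myo-inositol and makes galactinol, the first step that is particular to the raffinose family oligosaccharides (RFOs). Galactinol then serves as the galactose donor with which raffinose synthase turns sucrose into raffinose, and stachyose synthase turns raffinose into stachyose. RFOs build up in the seeds of many plants late in maturation and are known for their association with desiccation tolerance and with survival in dry storage. The study annotated 3 tomato genes as galactinol synthases, and all 3 were described here: SlGolS1 (Solyc01g100830.2.1), GolS2 (Solyc02g062590.3.1) and a gene for which no number was given, referred to by its identifier Solyc01g079170.3.1. These 3 genes were picked out by identifier from the 33976 genes of the count table, and all 3 passed the expression filter that kept 24676 genes for testing.

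The seeds came from tomato plants (Solanum lycopersicum) of the cultivar Moneymaker grown in a greenhouse. The study dates their growth to more than a single calendar year, and the labels do not give the year of a library. By the labels the groups differ in tissue and stage, with no treatment and no mutant. Sampling began with whole seeds at 15, 21 and 28 days after flowering (DAF). At 35, 42 and 49 DAF the seed was divided into seed coat, embryo and endosperm, and the last 2 of these were followed through 8 more stages named after the fruit: mature green (MG, 56 DAF), breaker (B, 63 DAF), pale orange (PO, 67 DAF), orange (O, 70 DAF), dark orange (DO, 72 DAF), red (R, 76 DAF), and 7 and 14 days after red (R7, 83 DAF and R14, 90 DAF). Each of the 28 combinations of tissue and stage had 3 libraries, 84 in all, which the study describes as biological replicates. Tissues were separated by hand and each library came from several seeds, so a whole seed library does not show in which tissue a transcript lay, and no seed coat was sampled after 49 DAF.

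Estimated counts per library totalled 16908779 to 22734330. Levels are given as counts divided by the library total and scaled to 1e+06 (CPM), in the order of replicates 1, 2 and 3 where 3 values stand together, and at this depth 3 counts, taken as the limit of detection, correspond to 0.132 to 0.177 CPM. Such limits and counting intervals cover counting error only. Tests were edgeR quasi-likelihood tests on all libraries, with TMM factors for the composition of each library and Benjamini-Hochberg adjustment over 24676 genes. Fitted fold changes are given on the log2 scale ± a standard error (SE). This SE was derived as the absolute log2 fold change divided by the square root of the F statistic. The spread behind SE and p was estimated over all 28 groups together, so the groups compared can vary more or less. Where a group had almost no counts this SE is not a reliable measure of error. A difference was called when the log2 fold change was above 1 or below -1 and the adjusted p under 0.05, the thresholds of the study. TMM factors ran from 0.513 to 1.66, and in 32 of the 61 comparisons they moved the median gene by more than 0.1 on the log2 scale (by up to 1.20), so a fitted fold change can differ from the ratio of CPM. Markers that the study had named, most of them from these samples, were used to check the dissection. The 7 embryo markers summed to 61.7 to 222 CPM in embryo libraries, 0.761 to 4.40 CPM in seed coats and 0.289 to 14.1 CPM in endosperms. The 5 seed coat markers, 1 of which was 0 in every library, summed to 1371 to 2102 CPM in seed coats, at most 8.74 CPM in embryos and at most 26.9 CPM in endosperms. The 4 endosperm markers had a median sum of 64.7 CPM in endosperms against 3.30 CPM in embryos, but at 35 DAF their sum in the endosperm (4.22 to 5.19 CPM) was lower than in the seed coat of that age (8.78 to 12.5 CPM), so they do not mark the young endosperm.

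The 3 seed coat libraries of 42 DAF stood apart from each other, and several results below rest on them. Across the 24676 genes, replicate 1 correlated at 0.972 with the mean of the 49 DAF seed coats and at 0.920 with that of 35 DAF, whereas for replicate 3 these values were 0.941 and 0.951. Replicate 1 was likewise the library nearest to 49 DAF in the embryo (0.969) and in the endosperm (0.975) of that age. Calls that changed when one of these libraries was left out are given beside the results they touch.

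The 3 genes were divided between the tissues in different ways. The transcript of Solyc01g079170 was highest in the seed coat of 35 DAF (262 ± 71.7 CPM, mean ± SD, n = 3) and, after its fall there, highest in the embryo, whose mean was 3.57 to 4.38 times that of the endosperm from 49 DAF to R14. SlGolS1 was a transcript of the embryo and the endosperm and peaked at 49 DAF to MG, with 1412 ± 153 CPM in the endosperm of 49 DAF and 937 ± 259 CPM in the embryo of MG (n = 3 each). GolS2 exceeded a mean of 1 CPM in 3 groups only, the endosperm of 35 DAF (12.4 ± 1.66 CPM) and the seed coats of 42 and 49 DAF (4.25 ± 5.19 and 29.6 ± 11 CPM, n = 3 each). Levels are compared within a gene, and not between genes, since gene lengths were not used here. All 252 estimated counts of the 3 genes were whole numbers (within 1e-06), and the sharing of reads between near-identical genes was not analysed here. In bulk tissue a smaller share of the cells that express a gene and less of its RNA per cell cannot be told apart.

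**Figure D1:**
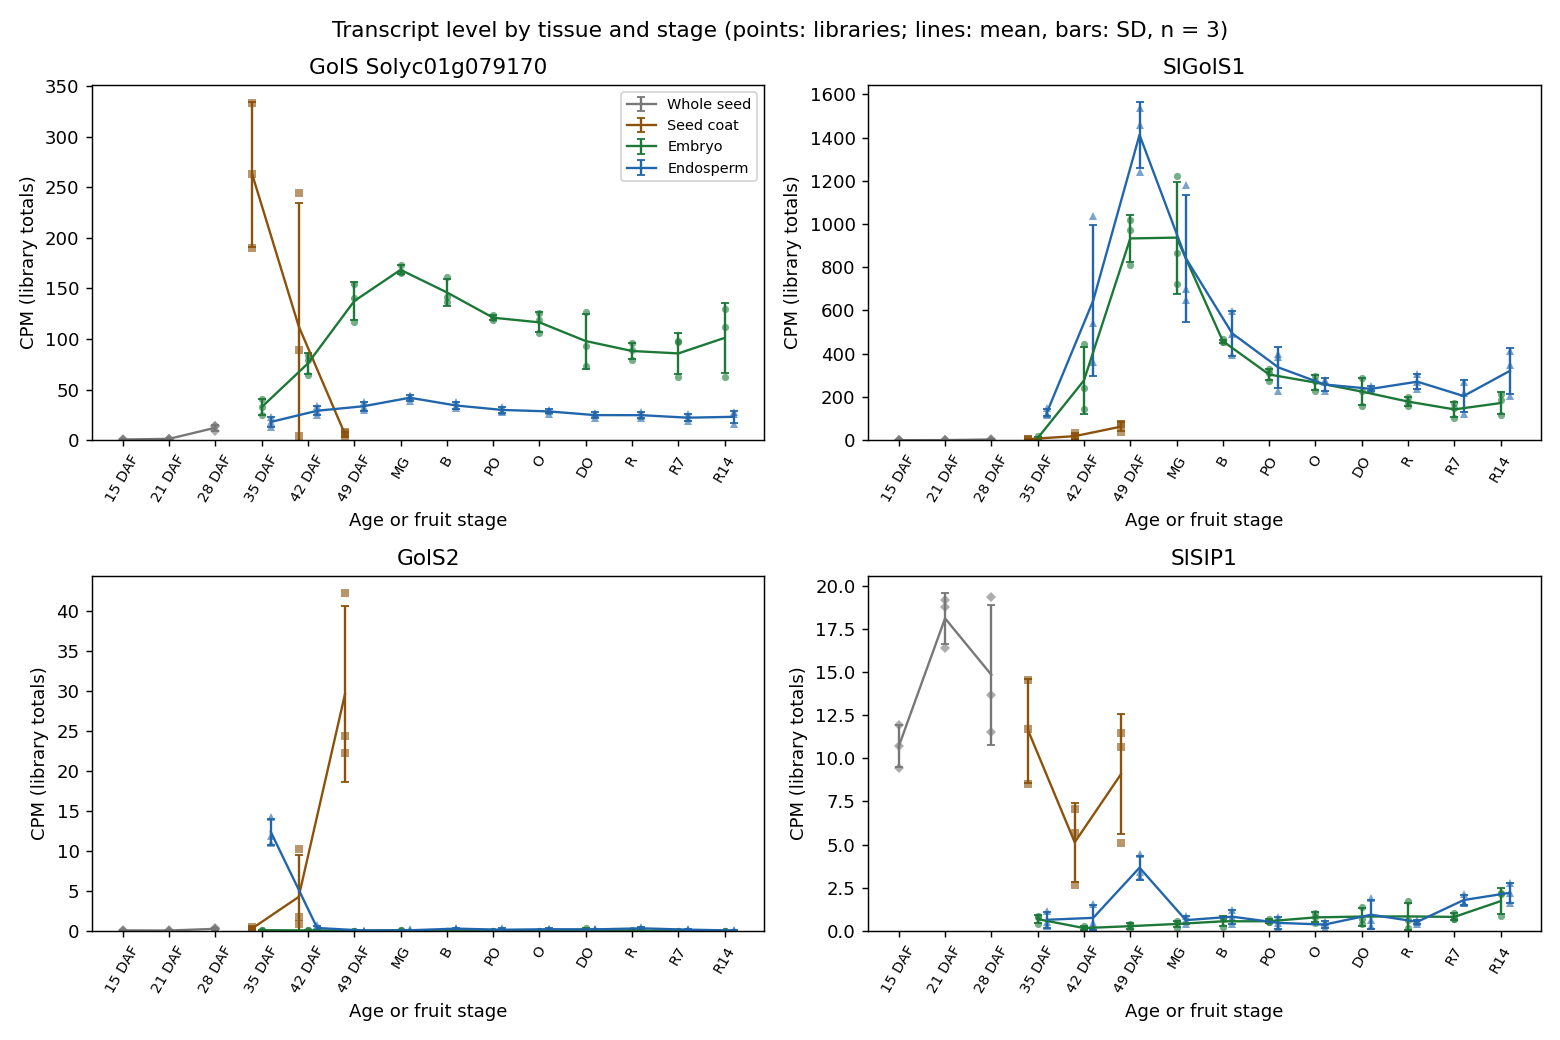
Transcript level in CPM (vertical axis, linear, a scale of its own for each gene) of the 3 galactinol synthase genes and of the raffinose synthase SlSIP1 at each age or fruit stage (horizontal axis). Small symbols are the libraries, lines join the means of 3 libraries and bars are the SD. Solyc01g079170 falls in the seed coat between 35 and 49 DAF and stays higher in the embryo than in the endosperm, SlGolS1 peaks at 49 DAF in the endosperm at 1412 CPM, and GolS2 appears in the endosperm of 35 DAF and the seed coat of 49 DAF.

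In the seed coat Solyc01g079170 started high and was low by 49 DAF. Its level was 333, 263 and 190.0 CPM at 35 DAF, 4.22, 89.1 and 244 CPM at 42 DAF and 3.16, 6.89 and 7.66 CPM at 49 DAF. The libraries of 35 and 49 DAF did not overlap, and their means differed 44.4-fold. At 42 DAF replicate 1 lay within the range of 49 DAF and replicate 3 within that of 35 DAF, with replicate 2 between them. Per the edgeR fit the transcript fell from 35 to 49 DAF (-6.00 ± 0.55, adjusted p = 1.02e-13), from 35 to 42 DAF (-1.83 ± 0.45, adjusted p = 0.00116) and from 42 to 49 DAF (-4.17 ± 0.51, adjusted p = 9.29e-09). The call of the step from 35 to 42 DAF was lost in 2 alternative fits, 1 of them that without replicate 2 of every group, at -1.65 (adjusted p = 0.148). That of the step from 42 to 49 DAF was lost in 1. That over the whole span kept its direction and its call under each of the 8 alternatives run on it, with log2 fold changes of -6.45 to -5.47. Over that span 25% of all genes were called. All 6 tests of the 3 genes over the seed coat steps were called, beside calls for 17.3% of all genes between 35 and 42 DAF and for 10.1% between 42 and 49 DAF.

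SlGolS1 and GolS2 rose in the same seed coats. SlGolS1 measured 2.88, 6.31 and 5.47 CPM at 35 DAF, 33.6, 11 and 11.1 CPM at 42 DAF and 39.8, 74.3 and 73.3 CPM at 49 DAF, and the libraries of the 3 ages did not overlap. Its means differed 12.8-fold between 49 and 35 DAF, with a log2 fold change of 3.14 ± 0.45, adjusted p = 3.66e-08. GolS2 measured 0.270, 0.224 and 0.489 CPM at 35 DAF, 10.2, 1.71 and 0.825 CPM at 42 DAF and 42.3, 22.3 and 24.4 CPM at 49 DAF. Here too the 3 ages did not overlap, and the summed counts gave a ratio between 49 and 35 DAF of 90.2 (95% exact counting interval 59.4 to 144). GolS2 rose over the span by 5.92 ± 0.67, adjusted p = 1.65e-10. The rise between 35 and 42 DAF was called for SlGolS1 (1.24 ± 0.43, adjusted p = 0.0211) and for GolS2 (2.98 ± 0.63, adjusted p = 0.000178), but without replicate 1 of the seed coat at 42 DAF it was 0.52 (adjusted p = 0.443) for SlGolS1 and 1.26 (adjusted p = 0.115) for GolS2, and neither was called. For SlGolS1 it was also lost without replicate 1 of the seed coat at 35 DAF, at 0.97 (adjusted p = 0.131). In all, the call of this step was lost in 5 alternative fits for SlGolS1 and in 2 for GolS2. The rise between 42 and 49 DAF was 1.91 ± 0.42, adjusted p = 0.000509 for SlGolS1 and 2.94 ± 0.55, adjusted p = 6.38e-05 for GolS2. Without replicate 2 of every group both calls were lost, at 1.45 (adjusted p = 0.226) and 2.70 (adjusted p = 0.0807), as they were in a fit of only the groups compared, at 1.87 (adjusted p = 0.0739) and 2.91 (adjusted p = 0.0860). That of SlGolS1 was also lost without replicate 3 of every group, at 1.52 (adjusted p = 0.0548). Without replicate 1 of the seed coat at 42 DAF the rise was larger, at 2.61 (adjusted p = 3.61e-05) and 4.65 (adjusted p = 5.75e-08). In the seed coats of 49 DAF the embryo markers summed to 2.22 to 4.39 CPM against 69.0 to 85.7 CPM in the embryo, and the endosperm markers to 4.70 to 8.03 CPM against 23.6 to 31.9 CPM in the endosperm. Their part in the SlGolS1 level of the seed coat was not tested. For GolS2 the embryo and endosperm of 49 DAF held 1 count in each library.

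**Figure D2:**
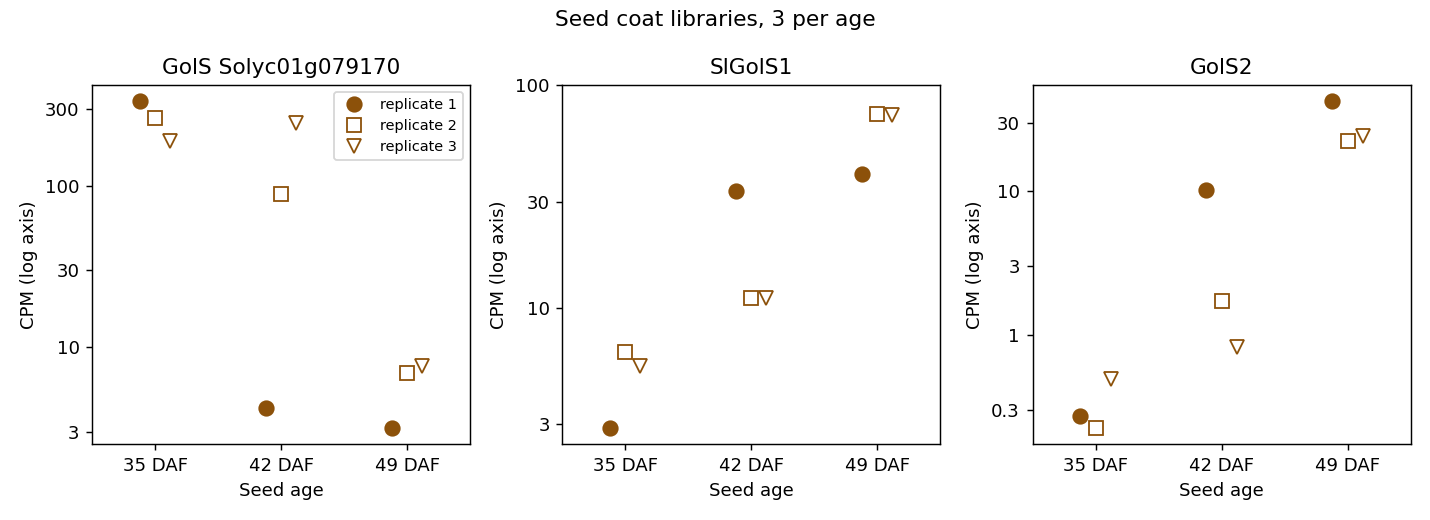
Level in CPM (vertical axis, log scale) of the 3 galactinol synthase genes in the seed coat libraries of 35, 42 and 49 DAF (horizontal axis), 1 symbol per library, with replicate 1 filled. At 42 DAF replicate 1 sits at the level of 49 DAF for Solyc01g079170 (4.22 CPM) and above replicates 2 and 3 for SlGolS1 and GolS2.

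Solyc01g079170 rose in the embryo while it fell in the seed coat. In the embryo it measured 40.4, 32.7 and 24.8 CPM at 35 DAF, 84, 79.1 and 64.4 CPM at 42 DAF, 117, 140.5 and 155 CPM at 49 DAF and 173, 166 and 165 CPM at MG. These 4 stages did not overlap, and MG was 5.16-fold above 35 DAF in mean CPM. The rise was called between 35 and 42 DAF (1.56 ± 0.45, adjusted p = 0.00512) and over 35 to 49 DAF (2.15 ± 0.46, adjusted p = 5.73e-05), beside 19.4% and 40.8% of all genes. The first of these was lost without replicate 2 of every group, at 1.54 (adjusted p = 0.145). From MG onwards the means declined from 168 CPM to between 85.7 and 146 CPM, and none of the 8 steps from 49 DAF to R14 was called for it, where 1.39% of all gene tests over these steps were (0 of 8 also with DESeq2 and at an unadjusted edgeR p under 0.05). The fall from 49 DAF to R14 was -1.33 ± 0.45, adjusted p = 0.0111. When library totals replaced the TMM factors it was -0.44 (adjusted p = 0.368) and not called, nor was it without replicate 1 of the embryo at R14, at -1.05 (adjusted p = 0.0876). The highest embryo stage also depended on the scaling, being MG in CPM and 49 DAF when CPM was divided by the TMM factors.

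In the endosperm the same gene stayed in a narrow range. Its mean was 18.0 ± 4.80 CPM at 35 DAF, reached 41.9 ± 2.96 CPM in the MG stage and had returned to 23.1 ± 5.88 CPM by R14 (SD, n = 3). None of the 10 steps between consecutive stages was called, where 6.32% of all gene tests over these steps were (0 with DESeq2, 1 at an unadjusted edgeR p under 0.05). Without replicate 1 of 35 DAF the step to 42 DAF was called, at 1.25 (adjusted p = 0.0479). The rise from 35 to 49 DAF was 1.21 ± 0.46, adjusted p = 0.0181 with TMM factors and 0.90 (adjusted p = 0.0611) with library totals, where it was not called. It was also lost without replicate 3 of 35 DAF, at 0.98 (adjusted p = 0.0976), or replicate 2 of 49 DAF, at 1.10 (adjusted p = 0.0537). The fall from 49 DAF to R14 was -0.97 ± 0.45, adjusted p = 0.0679 and not called.

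The embryo held more Solyc01g079170 transcript than the endosperm at each of the 11 stages. In CPM the ratio of the means was 1.81 at 35 DAF, 2.61 at 42 DAF and between 3.57 and 4.38 from 49 DAF to R14, and at each stage the lowest embryo library lay above the highest endosperm library. All 11 differences were called, with log2 fold changes from 1.37 ± 0.46 at 35 DAF to 2.30 ± 0.46 at 49 DAF, where 31.3% of all gene tests over these stages were called (27.1% to 42.9% according to the stage). The difference at 35 DAF was not called with library totals, at 0.86 (adjusted p = 0.0725), without replicate 1 of the embryo, at 1.05 (adjusted p = 0.0634), or without replicate 3 of the endosperm, at 1.14 (adjusted p = 0.0537). Without replicate 2 of every group the calls at 35 and 42 DAF, B, PO, R, R7 and R14 were lost, although the log2 fold changes over these stages and the alternatives that refitted all genes stayed between 0.86 and 2.39. None of the 10 tests of whether a step differed between embryo and endosperm was called for this gene, nor with DESeq2 or at an unadjusted edgeR p under 0.05.

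At 35 DAF the seed coat held 8.03-fold more of it than the embryo and 14.6-fold more than the endosperm in mean CPM, and the libraries did not overlap. The log2 fold changes of seed coat over embryo and over endosperm were 2.80 ± 0.47, adjusted p = 5.6e-07, and 4.17 ± 0.50, adjusted p = 1.46e-10. At 49 DAF both were turned round, at -5.35 ± 0.54, adjusted p = 2.22e-13, and -3.04 ± 0.49, adjusted p = 2.19e-07. At 42 DAF the seed coat libraries spanned both inner tissues. The difference from the embryo was -0.59 ± 0.44, adjusted p = 0.244 and changed sign with library totals, to 0.57 (adjusted p = 0.216), whereas without replicate 3 of the seed coat it was called, at -1.97 (adjusted p = 0.000164). That from the endosperm was 1.33 ± 0.45, adjusted p = 0.00796 and went to -0.05 (adjusted p = 0.946) without replicate 3 of the seed coat. Among all genes 47.7%, 48.1% and 52.8% were called between seed coat and embryo at 35, 42 and 49 DAF, and 43.4%, 47.6% and 50.5% between seed coat and endosperm.

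SlGolS1 was first measured in whole seeds. It had 1, 0 and 0 counts at 15 DAF, 5, 2 and 3 counts at 21 DAF and 54, 84 and 65 counts at 28 DAF, so 15 DAF was at or under the limit of detection and the ages of 21 and 28 DAF did not overlap. The rise from 21 to 28 DAF was called for SlGolS1 (4.43 ± 0.69, adjusted p = 2.82e-06), as was that of Solyc01g079170 (3.49 ± 0.56, adjusted p = 4.09e-06), which went from 1.5, 1.39 and 0.971 CPM to 9.05, 13.7 and 14.0 CPM. GolS2 had at most 8 counts in any whole seed library. Among all genes 9.04% were called at this step.

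At 35 DAF SlGolS1 was a transcript of the endosperm. The endosperm libraries measured 115, 122 and 149 CPM, the embryo libraries 17.1, 6.31 and 4.72 CPM and the seed coat libraries 2.88, 6.31 and 5.47 CPM. The endosperm lay above all libraries of the other tissues, with a mean 13.7-fold that of the embryo and 26.3-fold that of the seed coat, whereas the embryo and the seed coat overlapped. Embryo over endosperm gave a log2 fold change of -3.18 ± 0.44, adjusted p = 5.93e-09, and seed coat over endosperm -4.38 ± 0.47, adjusted p = 2.79e-12, where 42.9% and 43.4% of all genes were called. The seed coat was also called lower than the embryo, at -1.20 ± 0.43, adjusted p = 0.0126, but without replicate 1 of every group the difference was 0.03 (adjusted p = 0.991), and without 1 library it was -0.93 (adjusted p = 0.0885) (replicate 1 of the seed coat) or -0.24 (adjusted p = 0.662) (replicate 1 of the embryo).

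From 35 DAF both inner tissues rose, the embryo from the lower level and by more. The embryo reached 446, 239.7 and 143 CPM at 42 DAF and 810.2, 1016 and 973 CPM at 49 DAF, and the endosperm 1037, 540.0 and 360.4 CPM and 1457, 1538 and 1242 CPM. In both tissues the 3 ages did not overlap, and replicate 1 was the highest and replicate 3 the lowest library at 42 DAF. Between 35 and 42 DAF the log2 fold change was 5.17 ± 0.48, adjusted p = 3.16e-13 in the embryo and 2.67 ± 0.42, adjusted p = 3.67e-07 in the endosperm, where 19.4% and 27.4% of all genes were called. The difference between these changes was itself called, at 2.51 ± 0.58, adjusted p = 0.00079, beside 12.5% of all genes, and lost its call without replicate 2 of every group, at 2.30 (adjusted p = 0.104). From 42 to 49 DAF the changes were 1.49 ± 0.40, adjusted p = 0.00219 in the embryo and 1.14 ± 0.40, adjusted p = 0.0201 in the endosperm, where 21% and 19.7% of all genes were called. Both lost their calls without replicate 3 of every group, at 1.22 (adjusted p = 0.0606) and 0.95 (adjusted p = 0.165). The call in the endosperm was also lost without replicate 2 or 3 of 42 DAF, at 1.03 (adjusted p = 0.0824) and 0.85 (adjusted p = 0.160), or replicate 2 of 49 DAF, at 1.06 (adjusted p = 0.0575). Over 35 to 49 DAF the mean rose 99.5-fold in the embryo (6.66 ± 0.51, adjusted p = 3.52e-17) and 11-fold in the endosperm (3.80 ± 0.44, adjusted p = 5.43e-11), and these calls held under each alternative run.

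**Figure D3:**
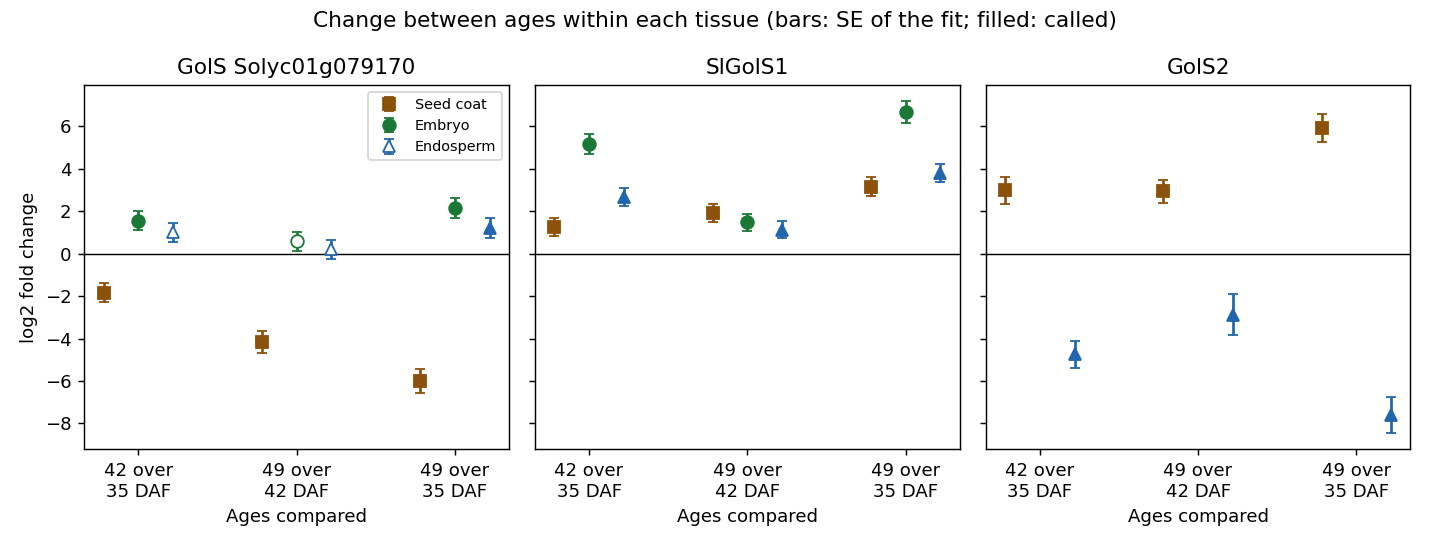
Log2 fold change (vertical axis) of the 3 galactinol synthase genes between the ages named on the horizontal axis in seed coat, embryo and endosperm. Bars are the SE of the edgeR fit and filled symbols are called, and GolS2 in the embryo is left out because its libraries there held 3 counts or fewer. Solyc01g079170 goes down in the seed coat and up in the embryo, SlGolS1 goes up in the 3 tissues, and GolS2 goes up in the seed coat and down in the endosperm.

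After 35 DAF embryo and endosperm were mostly not called different in SlGolS1. From 49 DAF to R7 this log2 fold change (embryo over endosperm) lay between -0.67 and 0.15 with SE near 0.40, and none of these 8 stages was called, where 27.1% to 33.7% of all genes were called. DESeq2 and an unadjusted edgeR p under 0.05 also gave 0 of 8. A difference that is not called does not show that the tissues held equal levels. At 42 DAF, where 33.5% of all genes were called, the difference was -0.68 ± 0.40, adjusted p = 0.151, but it was called with library totals, at -1.22 (adjusted p = 0.00338), and without replicate 1 of the embryo, at -1.21 (adjusted p = 0.0193). With the replicate number as a block its adjusted p was under 0.05, while its log2 fold change stayed under the threshold. At R14 the endosperm measured 203, 346 and 413 CPM and the embryo 115, 214 and 186 CPM, and the libraries overlapped. The difference was called at -1.10 ± 0.40, adjusted p = 0.0180, beside 31.9% of all genes, and not without the embryo replicate 1, at -0.85 (adjusted p = 0.115), or without the endosperm replicate 3, at -0.82 (adjusted p = 0.114). In all, 5 alternative fits lost this call.

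**Figure D4:**
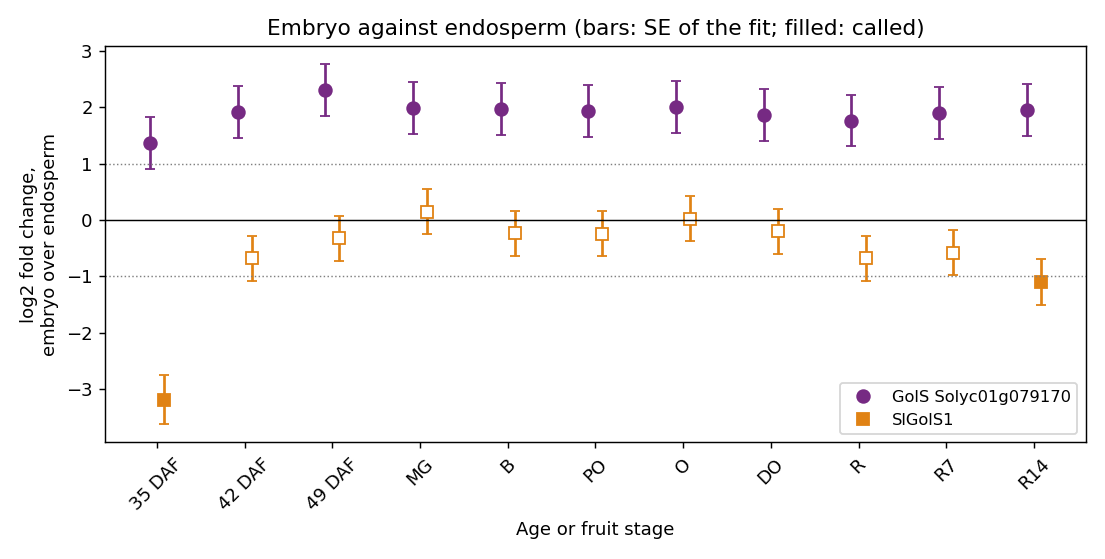
Embryo over endosperm as a log2 fold change (vertical axis) at each age or fruit stage (horizontal axis) for Solyc01g079170 and SlGolS1. Bars are the SE of the edgeR fit, filled symbols are called and dotted lines mark a log2 fold change of 1 and -1. Solyc01g079170 lies at 1.37 to 2.30 throughout, whereas SlGolS1 starts at -3.18, lies between -0.68 and 0.15 from 42 DAF to R7 and is at -1.10 at R14.

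SlGolS1 declined after its peak. In the embryo it measured 1224, 866 and 721 CPM at MG, 455, 467 and 452 CPM at B and 173, 149.6 and 104 CPM at R7, and in the endosperm 1179, 699 and 648 CPM at MG, 598, 392 and 493 CPM at B and 271, 219 and 122 CPM at R7. In both tissues MG and B did not overlap. The means were higher again at R14 than at R7, at 321 against 204 CPM in the endosperm and 172 against 142 CPM in the embryo. Libraries of these stages overlapped in both tissues, and neither step was called. Between 49 DAF and R14 it fell by 3.34 ± 0.43 on the log2 scale in the embryo (adjusted p = 2.24e-09) and by 2.57 ± 0.42 in the endosperm (adjusted p = 5.37e-07), where 28% and 30.6% of all genes were called. Among the 16 single steps after 49 DAF 1 was called for this gene, in the endosperm from 49 DAF to MG (-1.0 ± 0.40, adjusted p = 0.0484), and it was not called with library totals, at -0.75 (adjusted p = 0.112), nor in 5 of the 6 fits that left out 1 library of either stage (log2 fold changes of -1.34 to -0.85). The step from MG to B in the embryo, where 1.24% of all genes were called, was not called, at -1.23 ± 0.40, adjusted p = 0.0552. It passed the threshold in DESeq2, at -1.22 (adjusted p = 0.0350), and without replicate 3 of MG, at -1.43 (adjusted p = 0.0380). In the last pair of stages the lowest library had the same number in both tissues. At R7 replicate 3 was the lowest in embryo and endosperm for SlGolS1 and for Solyc01g079170, and at R14 replicate 1 was. Over the 11 stages the lowest library shared its number between the tissues at 4 stages for SlGolS1 and at 5 for Solyc01g079170. The highest library did so at 6 and 4 stages.

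The seed coat stayed far below the inner tissues in SlGolS1 at each age after 35 DAF. At 49 DAF its mean was 62.5 ± 19.7 CPM, and the endosperm and embryo were 22.6-fold and 14.9-fold higher in mean CPM without overlap. The log2 fold changes of seed coat over embryo were -5.13 ± 0.48, adjusted p = 1.3e-14 at 42 DAF, and -4.71 ± 0.46, adjusted p = 8.95e-14 at 49 DAF. Those of seed coat over endosperm were -5.81 ± 0.49, adjusted p = 4.69e-16 at 42 DAF, and -5.04 ± 0.47, adjusted p = 1.98e-14 at 49 DAF, and these 4 calls held under each alternative run.

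GolS2 was an endosperm transcript at 35 DAF and a seed coat transcript at 49 DAF. In the endosperm it measured 14.2, 11.9 and 11 CPM at 35 DAF, 0.0931, 0.321 and 0.686 CPM at 42 DAF and 1 count in each library at 49 DAF. The 3 ages did not overlap. The ratio of 35 to 49 DAF from the summed counts (809 against 3) was 266 (95% exact counting interval 90.6 to 1291). The log2 fold change was -4.74 ± 0.64, adjusted p = 1.6e-08 from 35 to 42 DAF, where 27.4% of all genes were called, and -7.60 ± 0.83, adjusted p = 1.56e-11 over 35 to 49 DAF, where 42.7% were. The step from 42 to 49 DAF was -2.87 ± 0.99, adjusted p = 0.0173 but rests on few counts, 2, 7 and 15 against 1 in each library, and was not called without replicate 3 of 42 DAF, at -2.06 (adjusted p = 0.188), or replicates 2 or 3 of 49 DAF, at -2.88 (adjusted p = 0.0506) and -2.85 (adjusted p = 0.0554). After 49 DAF the endosperm libraries held between 0 and 9 counts, and none of the 8 steps was called there by edgeR or DESeq2 or had an unadjusted edgeR p under 0.05, where 2.01% of all gene tests were called.

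At 35 DAF the seed coat had 6, 5 and 11 counts of GolS2 and the embryo 1, 2 and 3, against 310, 261 and 238 in the endosperm. The ratio of endosperm to seed coat was 37.7 (95% exact counting interval 24.7 to 60.5) and that of endosperm to embryo 139 (95% exact counting interval 63.5 to 379.6). Seed coat markers summed to 21.6 to 26.9 CPM in these endosperm libraries against 1742 to 2102 CPM in the seed coat, whose own GolS2 level was lower than that of the endosperm. By 49 DAF the order had turned. The seed coat then had 897, 478 and 522 counts, and the ratio to the endosperm was 636 (95% exact counting interval 217 to 3085) and to the embryo 647 (95% exact counting interval 221 to 3139). The log2 fold change of seed coat over endosperm was -4.91 ± 0.65, adjusted p = 3.51e-09 at 35 DAF, and 8.61 ± 0.84, adjusted p = 2.41e-13 at 49 DAF, where 43.4% and 50.5% of all genes were called. Fitted values against groups with so few counts depend on the prior count of the fit. At 42 DAF it was 2.80 ± 0.62, adjusted p = 8.78e-05, and 1.10 (adjusted p = 0.102) without replicate 1 of the seed coat. The 2 tissues in which GolS2 was high did not reach the same level, and the mean of the seed coat of 49 DAF was 2.40 times that of the endosperm of 35 DAF.

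In the embryo GolS2 was not detectable at this depth in 10 of 11 stages, with 3 counts or fewer in each library and 0 in all 3 libraries at PO, O and R7. The exception was DO, where replicate 1 had 9 counts and the other libraries 1 and 0. Against the embryo of PO the seed coat of 49 DAF was at least 612-fold higher, taking 3 counts over the group as the floor. Besides 35 DAF, embryo and endosperm differed by call at B, PO, O, R and R7, with 0 to 2 counts in the embryo and 1 to 9 counts in the endosperm, and each of these 5 calls was lost without replicate 2 or replicate 3 of every group. No fold is given for them, since both tissues were at or near the limit of detection.

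The ages at which all tissues were dissected allowed the changes themselves to be compared between tissues. Of 12 such tests of the 3 genes between the seed coat and an inner tissue 7 were called, where 17.2% of all gene tests were called. For Solyc01g079170 the change in the seed coat was lower than that in the embryo at both steps (-3.39 ± 0.64, adjusted p = 3.01e-05, and -4.76 ± 0.67, adjusted p = 1.67e-07) and lower than that in the endosperm (-2.84 ± 0.64, adjusted p = 0.000356, and -4.38 ± 0.67, adjusted p = 1.35e-06). The second call against the embryo held in each alternative fit. The first against the embryo and the second against the endosperm were lost in 1 fit each, and the first against the endosperm in 2. For GolS2 the change in the seed coat was higher than that in the endosperm (7.72 ± 0.90, adjusted p = 8.37e-10, and 5.81 ± 1.09, adjusted p = 6.23e-05), and both calls held under each alternative that gave a value. Against the embryo, where GolS2 was at or under the limit of detection, neither difference was called (3.17 ± 1.38, adjusted p = 0.0790, and 3.54 ± 1.54, adjusted p = 0.0810). The first was called with library totals, at 4.21 (adjusted p = 0.00824). It was also called without replicate 2 or 3 of the seed coat at 42 DAF, at 3.55 (adjusted p = 0.0475) and 3.64 (adjusted p = 0.0291). The second was called without replicate 1 of the seed coat, at 5.25 (adjusted p = 0.00344), or of the embryo of that age, at 4.09 (adjusted p = 0.0384). For SlGolS1 the seed coat rose less than the embryo from 35 to 42 DAF (-3.94 ± 0.61, adjusted p = 5.73e-07), and its difference from the endosperm missed the threshold (-1.43 ± 0.58, adjusted p = 0.0523), with values of -2.14 to -0.41 over the alternatives. Without replicate 1 of the seed coat at 42 DAF it was called, at -2.14 (adjusted p = 0.00475), as it was without replicate 1 of the seed coat at 35 DAF, at -1.70 (adjusted p = 0.0267), or replicate 3 of the endosperm at 42 DAF, at -1.72 (adjusted p = 0.0210). Between embryo and endosperm 2 of 30 tests of a difference in change were called, both from 35 to 42 DAF, for SlGolS1 (above) and for GolS2 (4.55 ± 1.54, adjusted p = 0.0271), where 2.46% of all such gene tests were. That of GolS2 sets the fall in the endosperm against an embryo at or under the limit of detection.

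Few neighbours in the order of the 28 group means could be told apart. For Solyc01g079170 the gap between neighbours exceeded the larger of their SDs in 9 of 27 cases and for SlGolS1 in 6. For GolS2 it did so only below the seed coat of 49 DAF and below the endosperm of 35 DAF. The embryo groups of PO, O and R7, all at 0, could not be ordered. For Solyc01g079170 the order began with the seed coat of 35 DAF, ahead of the embryo of MG, and ended with the whole seeds of 21 and 15 DAF below the seed coat of 49 DAF, each of these gaps being larger than the SD. For SlGolS1 it began with the endosperm of 49 DAF, followed by the embryo of MG and of 49 DAF and the endosperm of MG, which overlapped each other. For GolS2 the seed coat of 49 DAF and the endosperm of 35 DAF stood apart from all lower groups, and below the seed coat of 42 DAF no group mean exceeded 0.367 CPM.

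SlSIP1 (Solyc07g065980.3.1), a raffinose synthase, was the only other gene of the pathway that could be matched to a row of the table by name. Its mean level in CPM was lower in each embryo and endosperm group than in any whole seed or seed coat group. Whole seeds held 10.7 ± 1.22, 18.1 ± 1.49 and 14.8 ± 4.06 CPM at 15, 21 and 28 DAF, and seed coats 11.6 ± 3.02, 5.13 ± 2.27 and 9.08 ± 3.48 CPM at 35, 42 and 49 DAF (n = 3 each). In the embryo no stage mean exceeded 1.73 CPM. In the endosperm SlSIP1 had a transient maximum at 49 DAF, with 3.40, 3.13 and 4.46 CPM and no overlap with 42 DAF or MG, at the age of the SlGolS1 maximum there. The rise from 42 DAF was 2.27 ± 0.56, adjusted p = 0.00086 and the fall to MG -2.80 ± 0.57, adjusted p = 9.66e-05, where 19.7% and 12.8% of all genes were called. The rise lost its call without replicate 3 of every group, at 1.70 (adjusted p = 0.0521), and without replicate 2, at 2.13 (adjusted p = 0.0602). Of its 61 tests 13 were called, where 17.7% of all gene tests were. Seed coats held more SlSIP1 than the embryo at 35, 42 and 49 DAF, with log2 fold changes of 3.93 ± 0.58, 3.75 ± 0.67 and 4.23 ± 0.63. They held more than the endosperm at 35 and 42 DAF (4.51 ± 0.59 and 2.09 ± 0.56). At 49 DAF the difference from the endosperm was 0.78 and not called, though 1 alternative fit called it. Whole seeds were not tested against the dissected tissues.

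The genes whose pattern was most like that of each galactinol synthase were found by Pearson's r over the 28 group means of log2(CPM + 1), among 16595 genes with a group mean of at least 10 CPM. For SlGolS1 they were Solyc06g072680.4.1, annotated as an HVA22-like protein (r = 0.983), Solyc01g067650.2.1, annotated as a classical arabinogalactan protein (r = 0.973), and Solyc04g072470.4.1, annotated as a defensin (r = 0.971), and their highest means were in the endosperm of 49 DAF, the embryo of MG and the embryo of 49 DAF. For GolS2 the closest gene was Solyc03g111510.3.1 (r = 0.925), followed by Solyc02g087500.3.1 (r = 0.918) and Solyc02g089470.1.1, annotated as GLUTAMINE DUMPER 5 (r = 0.903). GolS2 was at or under the limit of detection in 14 of the 28 groups. By Spearman's rank correlation these 3 genes stood at 0.64, 0.37 and 0.45. For Solyc01g079170 r was lower, at 0.814 for Solyc04g078880.3.1, 0.791 for Solyc10g081575.1.1 and 0.779 for Solyc12g088360.2.1. Their rank correlations, at 0.78, 0.71 and 0.74, were above those of the GolS2 genes. Among themselves the 3 galactinol synthases correlated at 0.53 (Solyc01g079170 and SlGolS1), -0.24 (Solyc01g079170 and GolS2) and -0.13 (SlGolS1 and GolS2) over the 28 groups. These values are descriptions over groups that share stages, tissues and libraries.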

How the data were processed

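RNA of hand-dissected tomato seed tissues was sequenced by the authors as single-end reads on a BGISEQ-500 and quantified with Salmon against the ITAG 4.0 transcripts of the SL4.0 genome. The deposited table holds estimated counts per gene, neither scaled nor filtered (10.5% of values were not whole), and they were rounded. With edgeR (v4.0.16) in R (v4.3.3), genes were filtered with filterByExpr by group, scaled with TMM and fitted by quasi-likelihood in 1 model of 28 groups with no block, and p-values were Benjamini-Hochberg adjusted over all genes tested. The procedure was tested on simulated counts of endosperm groups only, with the same spread for all genes. Changes were put into genes with many counts, so changes near the limit of detection and the model of 28 groups were not covered. The contrasts were consecutive stages, spans of ages, tissues at 1 stage, and differences of changes between tissues. P-values rest on a spread between replicate libraries estimated over all 28 groups together. The spread within the groups compared can be larger or smaller. CPM used library totals. Alternatives were library totals, no filter, DESeq2 (v1.42.0), a fit of only the groups compared, a replicate block and leaving out replicates. Named were the 3 genes, SlSIP1, the tissue markers and, per gene, the 3 genes with the highest Pearson correlation over group means (highest mean of at least 10 CPM). Pathway genes were sought by description, and SlSIP1 alone matched. The members and lists were chosen with earlier results of these data known. No sequences were used here.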

Additional observations from a re-analysis of the deposited data

Results flagged for a closer look

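These are the tests, among those of the 3 galactinol synthases and SlSIP1, in which the change between ages itself differed between tissues (edgeR, Benjamini-Hochberg adjustment). Groups of 3 libraries are too small for a search for single deviating libraries.

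From 35 to 42 DAF the change of Solyc01g079170 in the seed coat minus that in the embryo was -3.39 ± 0.64, adjusted p = 3.01e-05 and minus that in the endosperm -2.84 ± 0.64, adjusted p = 0.000356. From 42 to 49 DAF these differences were -4.76 ± 0.67, adjusted p = 1.67e-07 and -4.38 ± 0.67, adjusted p = 1.35e-06. The gene fell in the seed coat at both steps, and the 4 values rest in part on the 3 seed coat libraries of 42 DAF, which ran from 4.22 to 244 CPM. Of the 4 calls only that against the embryo from 42 to 49 DAF held in each alternative fit.

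For SlGolS1 the change from 35 to 42 DAF was higher in the embryo than in the endosperm by 2.51 ± 0.58, adjusted p = 0.00079 and in the seed coat minus the embryo was -3.94 ± 0.61, adjusted p = 5.73e-07. The embryo had the largest rise of the 3 tissues at that step.

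For GolS2 the change in the seed coat exceeded that in the endosperm by 7.72 ± 0.90, adjusted p = 8.37e-10 from 35 to 42 DAF and by 5.81 ± 1.09, adjusted p = 6.23e-05 from 42 to 49 DAF. The difference between embryo and endosperm from 35 to 42 DAF, 4.55 ± 1.54, adjusted p = 0.0271, was lost without replicate 2 of the embryo at 42 DAF, at 4.13 (adjusted p = 0.159), or replicate 3, at 4.19 (adjusted p = 0.143).

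For SlSIP1 the change from 35 to 42 DAF in the seed coat minus that in the endosperm was -2.42 ± 0.79, adjusted p = 0.0130, and with library totals this was -1.40 (adjusted p = 0.128), not called. Without replicate 1 of the endosperm at 42 DAF alone it was -1.31 (adjusted p = 0.287), and it was also not called without replicate 1 of every group, at -1.41 (adjusted p = 0.242), without replicate 2, at -2.23 (adjusted p = 0.176), or in a fit of only the groups compared, at -2.46 (adjusted p = 0.0618). From 49 DAF to MG the changes in embryo and endosperm differed by 2.81 ± 0.92, adjusted p = 0.0481, and with the replicate number as a block by 2.83 (adjusted p = 0.0668), not called. This call was kept in 2 of the 12 fits that left out 1 library.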

How the results depend on the processing

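Of the 183 tests of the 3 genes 73 were called, where 17.7% of all gene tests over the same 61 comparisons were. Of these 73 calls 39 held under each alternative of scaling, filter, tool, libraries or block that gave a value. Beside single results above, not every fit that lost a call is named. Library totals kept 67 and added 3, no filter kept 72 and added 0, and DESeq2 kept 73 and added 4. In fits of only the groups compared, 46 tests gave no value because the gene, in most cases GolS2, did not pass the filter there. Of the 67 calls with a value 53 were kept. Leaving out replicate 1, 2 or 3 of every group kept 69, 46 and 60. Between consecutive stages 16 calls became 7 to 17 without a replicate number and 10 in fits of only the groups compared, over spans 13 became 11 to 13, between embryo and endosperm 19 became 7 to 20, between seed coat and inner tissues 16 became 15 to 16, and for differences in change 9 became 6 to 12, and 5 in fits of only the groups compared. These 5 sets held 72, 18, 33, 18 and 42 tests of the 3 genes, and 6.67%, 31.7%, 31.3%, 48.3% and 6.68% of all gene tests in them were called. The 13 calls of SlSIP1 became 8 to 12 without a replicate number. Fits without 1 library, and without replicate 1 of the seed coat at 42 DAF with everything estimated anew, were chosen after seeing the data. The first gave 13 to 17, 12 to 13, 18 to 20, 15 to 16 and 8 to 11 calls in these 5 sets and 11 to 15 for SlSIP1, and the second kept 15 of the 18 calls it touched and added 2.

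Sign changes were counted among the called tests and a few tests that were not called, and there were 4 cases. SlGolS1 in the seed coat over the embryo at 35 DAF changed sign without replicate 1 (0.0265, range without a replicate number -1.61 to 0.0265). Solyc01g079170 in the seed coat over the embryo at 42 DAF did so with library totals (0.57) or without replicate 1 (0.0643, range -2.12 to 0.0643). Over the endosperm at 42 DAF it did so without replicate 3 of the seed coat (-0.0520, range without 1 library -0.0520 to 1.90). Other tests that were not called could also change sign. GolS2 in the endosperm from 49 DAF to R14, for example, went from -0.36 to 0.03 with library totals. The cause was not tested. Dividing by TMM factors moved 12, 4 and 3 of 28 group means by more than 1 SD for Solyc01g079170, SlGolS1 and GolS2. With Spearman in place of Pearson correlation 2 of the 9 most similar genes were the same, and with TMM factors 7 of 9.

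With the replicate number of the titles as a block 73 of 73 calls were kept and 1 was added. For comparisons of embryo with endosperm, changes included, the block was the replicate number within a stage. For all other comparisons it was the replicate number over all groups. A pairing of seed coat libraries with the inner tissues of the same stage was therefore not fitted. For SlGolS1 the difference of embryo over endosperm at 42 DAF was -0.70 (adjusted p = 0.0261) with the block, under the threshold on the fold change. The correlation of deviations of same-numbered embryo and endosperm libraries was above 0.1 in 27 of 33 pairs (-0.23 to 0.46), in 5 of 9 pairs of seed coat and embryo and in 7 of 9 pairs of seed coat and endosperm. Since not every pair passed 0.1, the main fit had no block. The median for embryo and endosperm was 0.197 for the same number and -0.106 for other numbers. A library correlated best with its own number in 25 of 33, 8 of 9 and 9 of 9 cases. A block by the number in the sample codes kept 18 of 19 calls between embryo and endosperm. Depth limits what can be said of GolS2 in the embryo and in the endosperm from 49 DAF, where most libraries held 3 counts or fewer.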
